A study of Drosophila melanogaster with 4 samples.

Results

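The genes described here encode splicing factors and nuclear RNA-binding proteins of *Drosophila melanogaster*: SR proteins, hnRNPs, snRNP and spliceosome components, STAR and KH domain proteins, ELAV proteins and the Sex-lethal cofactors, together with *Saf-B* and *crn*. They were chosen by name, 41 in all, with earlier results of these data known. Each was represented by its brightest probe set on the array. Of these genes, 35 had a probe set with that gene as its only symbol, among 10844 gene symbols matched in this way, and 32 were bright enough to be tested. *x16*, *Srp54*, *snRNP-U1-C*, *snf* and *sqd* had no probe set that named them alone, and *elav2* matched no entry of the gene table used, so these 6 genes were not analysed here.

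Splicing removes introns from a pre-mRNA in the spliceosome, whose U1 and U2 particles recognise the splice sites before the catalytic core is assembled. SR proteins bind exons and favour the use of nearby splice sites, whereas hnRNPs often oppose them, and the balance between both sets the choice among alternative exons. STAR proteins join a KH RNA-binding domain with flanking regions that mediate dimerisation and carry signals from kinases. HOW, the protein missing from the mutant embryos, is itself a STAR protein that acts on the stability and splicing of its target mRNAs in mesoderm, tendon cells and glia.

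Transcript levels were measured in pools of whole embryos on one-colour Affymetrix arrays. Eggs were laid for 2 h at 25 °C and then kept for a further 3 h, which gave ages of 3 to 5 h. The *how* mutant embryos (2 arrays) came from mothers with *how* mutant germline clones, so that they had neither maternal nor zygotic HOW, and were picked by the absence of a GFP balancer under a fluorescence microscope. The wild-type embryos (2 arrays) came from the yw stock. Each array pooled RNA from 5 preparations of about 100 embryos, and replicates were independent samples per the labels. The allele of *how* and the background of the clone stock were not given in the sources used here, so that the loss of HOW and other differences between the stocks cannot be told apart.

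The signals have no unit and were scaled by the authors to a common mean on every array. The median signal of gene probe sets was 82.1 and 75.5 on the mutant arrays and 76.1 and 79.8 on the wild-type arrays. No probe set was named *how*, so the loss of *how* transcript was not examined. Of the markers of the labelled stage, 9 of 11 segmentation and early mesoderm genes were tested and none passed, and their summed signal was 5428 and 4510 in mutant embryos against 5352 and 5308 in wild-type embryos. Markers of later differentiation (muscle and cuticle genes) had a summed signal over 9 genes of 574 and 702 in mutant embryos against 4577 and 4619 in wild-type embryos. Of 8 tested members 8 passed, all lower in the mutant, against 1.29% of all probe sets tested called lower. This list was chosen with earlier results of these data known, so the count is no independent support. *Mlc1*, *up*, *Osi6* and *Cpr65Ea* had both mutant arrays under 39.5, the mean signal below which a probe set was not tested. They were bright enough to be tested only through the wild-type arrays. Maternal and pole cell transcripts summed over 12 genes to 8800 and 9779 in mutant embryos against 8063 and 8685 in wild-type embryos. Most of these sums was *CycB*, with 6258 and 7292 in mutant embryos against 6414 and 7221 in wild-type embryos, so they hide changes of the dimmer genes. Of 8 tested members 3 passed, all higher in the mutant, against 1.75% of all probe sets tested called higher. Among those that passed, *pgc* had both wild-type arrays under 39.5. The median log2 change of the 8 was 0.37. Neuronal markers were dim in both groups, with sums over 5 genes of 146 and 196 in mutant embryos against 171 and 163 in wild-type embryos, and 0 of 2 tested members passed. Markers of blood cells and fat body summed over 6 genes to 1563 and 1411 in mutant embryos against 2064 and 1543 in wild-type embryos, and 1 of 5 tested members passed (*Ppn*, 0.50-fold). *Pxn*, of the same list, did not pass, with 212 and 124 in mutant embryos against 91.2 and 20.8 in wild-type embryos. These shifts accompany every comparison between the groups, and their part in the results that follow was not tested. Whether the collections differed in embryo age or mix of stages was not tested, and such a difference cannot be told apart from genotype. In whole embryos, fewer cells of a type and less RNA per cell cannot be told apart.

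The question of the comparison was which transcripts differ when HOW is missing. Of the 32 splicing factor and RNA-binding protein genes tested, 1 passed, the rise of *Saf-B*, and the other 31 did not (limma, Benjamini-Hochberg adjusted p under 0.05 over 8380 probe sets). Among all probe sets tested 3.04% were called, 1.75% higher and 1.29% lower in the mutant, so that 1 call among 32 genes is a share close to that background. The median log2 change of the 32 genes was -0.01, against 0.00 over all probe sets tested, with 15 genes above 0 and 17 below. For 30 of the 32 the change was under 0.5 on the log2 scale in either direction, against 79% of all probe sets tested. The median standard error of the log2 change was 0.16 for the 32 genes and 0.22 over all probe sets tested.

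**Figure D1:**
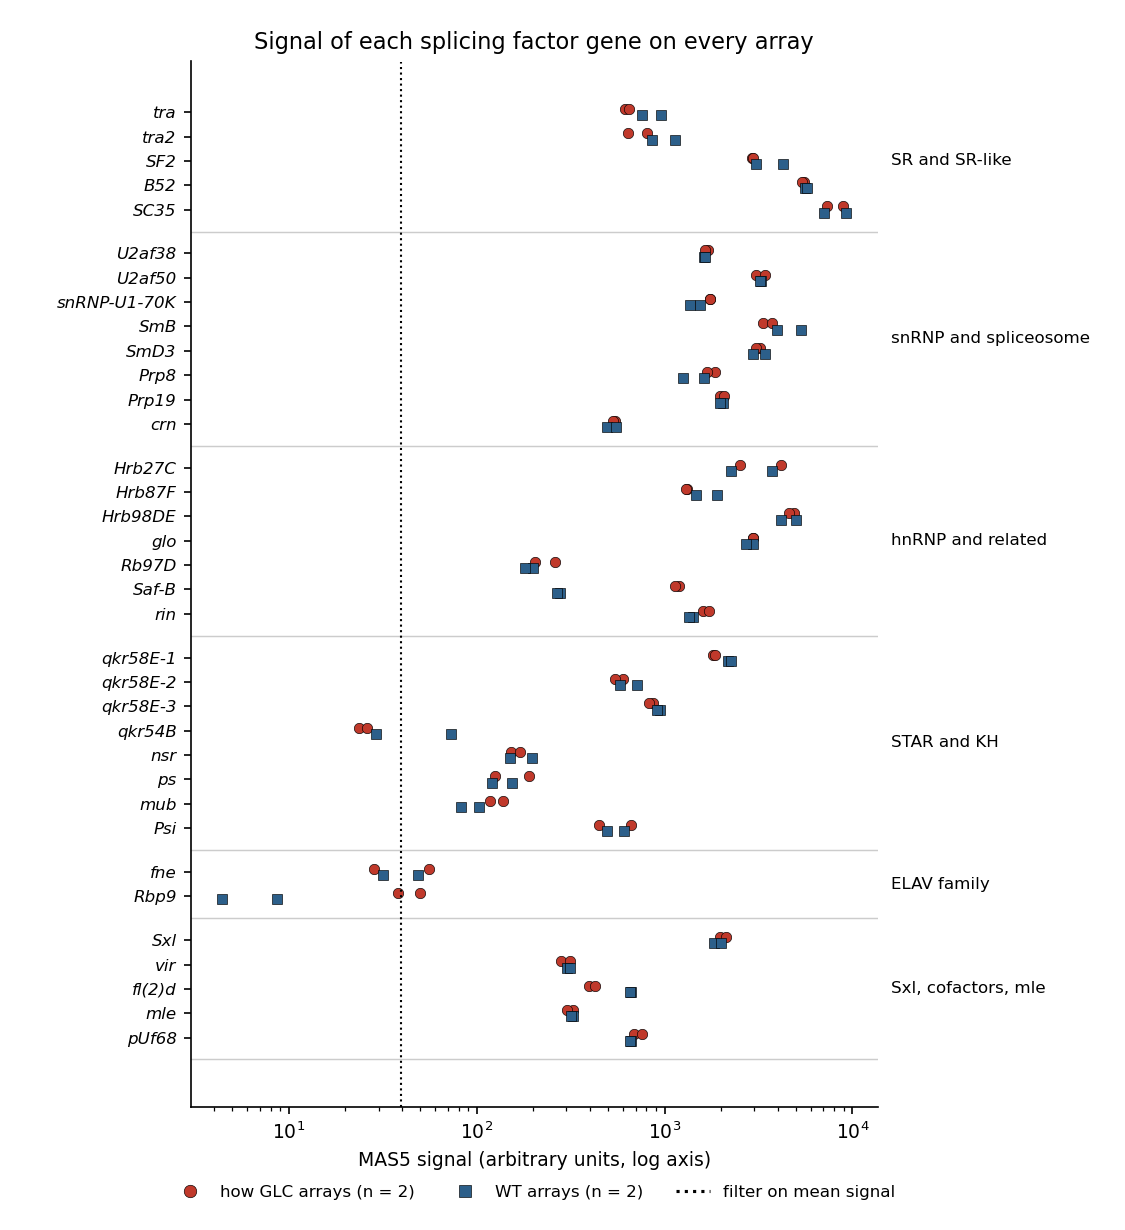
Signal of the brightest probe set of each of the 35 measured genes on every array, on a log axis, with the *how* mutant arrays as red circles and the wild-type arrays as blue squares (n = 2 each). For *Saf-B* the mutant arrays lie at 1199 and 1138 and the wild-type arrays at 276 and 268, while for most genes the groups lie side by side; the dotted line is the mean signal of 39.5 below which a probe set was not tested, and signals of different genes are not comparable.

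*Saf-B* encodes the fly relative of mammalian scaffold attachment factor B, a nuclear protein with a SAP domain that contacts DNA and an RNA recognition motif. Its signal was 1199 and 1138 in mutant embryos against 276 and 268 in wild-type embryos. Both mutant arrays lay above both wild-type arrays, 4.12-fold at the nearest pair, and the replicates of each group lay close together. The means were 1168 ± 43.0 in the mutant and 272 ± 6.07 in wild type (SD, n = 2 each). The log2 change was 2.10 ± 0.14 (SE; limma adjusted p = 0.000723), a 4.29-fold rise with a 95% interval of 3.41 to 5.41. By size it was rank 20 among the 147 probe sets called higher, and by unadjusted p it was rank 7 among all 8380 tested. The call was kept under 12 of 13 alternatives, with adjusted p from 1.03e-08 to 0.0891; it was lost when dim probe sets were kept, where no probe set on the array passed.

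*Saf-B* lies on chromosome arm 3R (Release 6 gene table), the arm that also carries *how*. It was one of 9 tested genes of the set on 3R, and the other 8 had log2 changes between -0.35 (*Hrb87F*) and 0.29 (*Rb97D*). Tested genes near *Saf-B* on the arm were compared with it. In gene order they lay 2, 5 and 6 places away on one side and 3, 9 and 10 on the other. The genes directly next to *Saf-B* were not among them. Of the 3 nearest tested genes on each side, 0 of 6 passed the limma test at adjusted p under 0.05, against 3.04% of all probe sets tested. An unadjusted p under 0.05 was found for 1 of 6, against 16.1% of all probe sets tested. Counts of 6 genes are too small to differ visibly from these shares, and differences between the stocks along the arm were not tested. Their log2 changes ran from -0.42 (*Esp*) to 0.25 (*CG5808*). *RabX4*, the nearest tested gene on one side, had signals of 191 and 195 in mutant embryos against 202 and 185 in wild-type embryos.

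The plot of log2 changes with their intervals shows the other 31 genes around 0. For 29 of these 31 the 95% interval of the log2 change lay within a 2-fold change in either direction. The 2 exceptions were *mub*, whose interval reached 1.09 above 0, and *fl(2)d*, whose interval reached -1.02. These intervals give the precision of each estimate with 2 arrays a group and are not a limit of detection. Those of *fl(2)d*, *tra* and *tra2* lay wholly below 0, although these genes did not pass after adjustment.

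**Figure D2:**
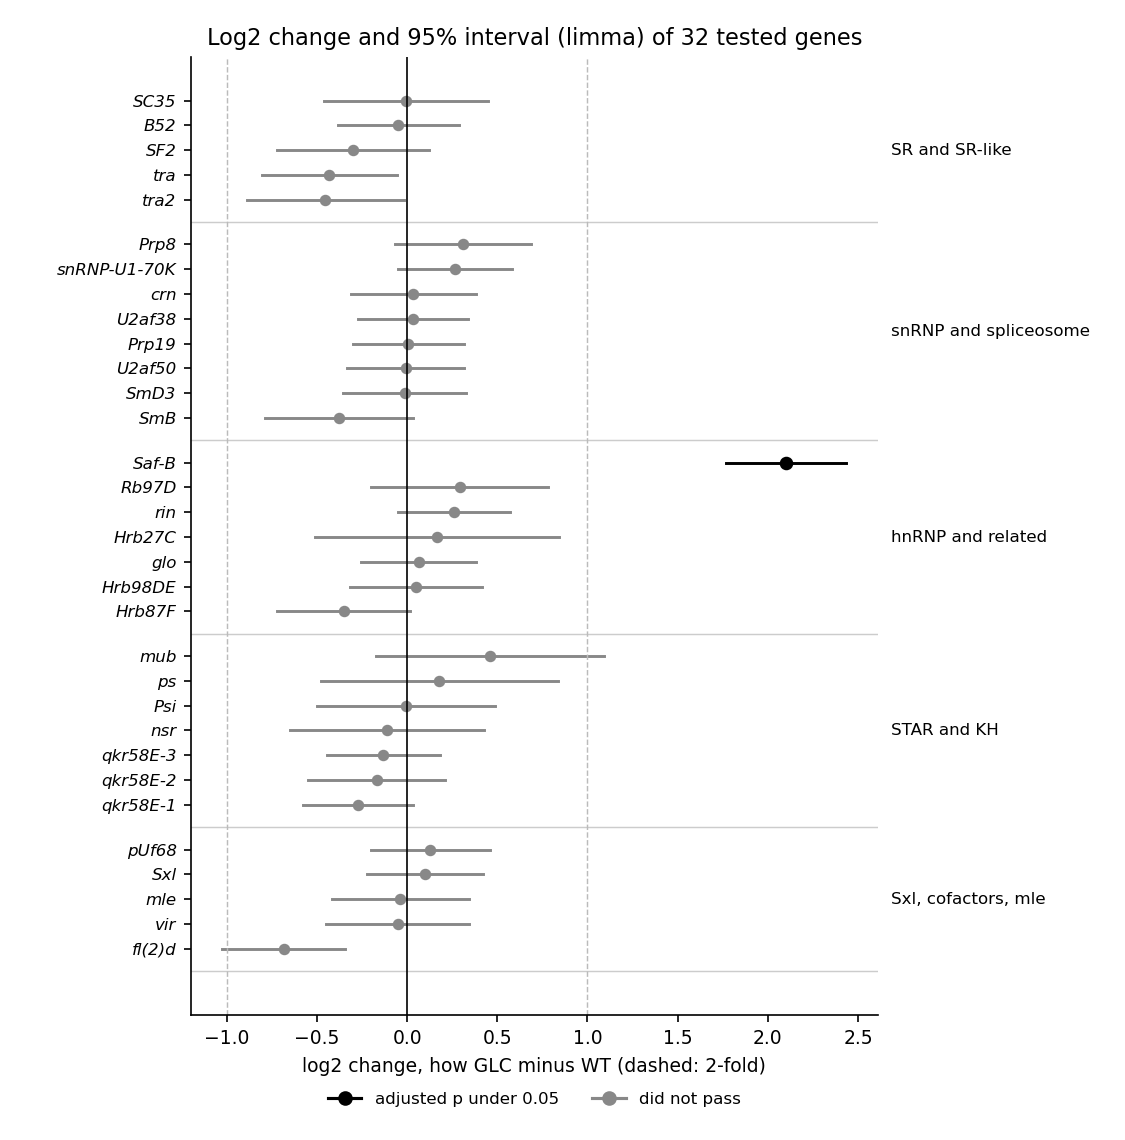
Log2 change (*how* mutant minus wild type) of the 32 tested genes with limma's 95% interval, grouped by role, with *Saf-B* in black as the gene that passed and the others in grey. The interval of *Saf-B* runs from 1.77 to 2.44, that of *fl(2)d* from -1.02 to -0.35, and the dashed lines mark a 2-fold change.

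The gene next to the threshold was *fl(2)d*, which encodes the fly WTAP protein, a cofactor of Sex-lethal in alternative splicing and a subunit of the complex that writes N6-methyladenosine on mRNA. Its signal was 397 and 427 in mutant embryos against 665 and 658 in wild-type embryos. Both mutant arrays lay below both wild-type arrays, 1.54-fold at the nearest pair. The log2 change was -0.68 ± 0.15 (SE; limma adjusted p = 0.0534), or 0.62-fold with a 95% interval of 0.49 to 0.79. It was rank 268 by unadjusted p, where 255 probe sets were called, and 5.37% of all probe sets tested had a log2 change at or below its own. With the replicate number as a block its adjusted p was 0.00376, and with a 60th percentile filter, 50 added to the signals or the mean of probe sets it was 0.0465, 0.0457 and 0.048. Over all 13 alternatives it ranged from 0.00376 to 0.297, and the log2 change from -0.74 to -0.62.

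The methyltransferase complex holds other proteins beside Fl(2)d, and their genes are given here although most were picked after the values were seen. Of 7 genes, 6 were tested, 6 of 6 lay below 0 and 0 passed in limma at adjusted p under 0.05. An unadjusted p under 0.05 was found for 1 of 6 (*fl(2)d*), against 16.1% of all probe sets tested. Without mutant array 1, 5 of 6 lay below 0. For 5 of the 6 both mutant arrays lay below both wild-type arrays, an arrangement found for 23% of all probe sets tested. *vir*, the gene for the large scaffold protein Virilizer, had signals of 280 and 314 in mutant embryos against 301 and 313 in wild-type embryos, and its groups overlapped (log2 change -0.05, or 0.03 without mutant array 1). *Mettl14*, which encodes the RNA-binding partner of the catalytic subunit, had 352 and 337 in mutant embryos against 536 and 374 in wild-type embryos (log2 change -0.38, or -0.12 without wild-type array 1 and -0.64 without wild-type array 2). The log2 changes of *flacc*, *nito* and *Hakai*, which encode further subunits, were -0.21, -0.20 and -0.19. That of *flacc* ran from -0.33 to -0.10 when single arrays were left out, and that of *nito* was -0.10 without wild-type array 2. *Mettl3*, the gene for the catalytic subunit, had no probe set named for it alone.

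*Sxl* encodes the female-specific master regulator of sex determination and dosage compensation, which controls splicing of its own transcript and of *tra*. It had a pair of bright probe sets, and they did not agree in sign. The brighter had signals of 1962 and 2126 in mutant embryos against 1821 and 2001 in wild-type embryos, and the groups overlapped (log2 change 0.10 ± 0.14, SE; limma adjusted p = 0.806). The other had 1041 and 1297 in mutant embryos against 1416 and 1688 in wild-type embryos. There both mutant arrays lay below both wild-type arrays, and the log2 change was -0.41 ± 0.17 (SE; unadjusted p = 0.039, limma adjusted p = 0.279). Which transcripts of *Sxl* each probe set detects was not analysed here, and the array does not tell splice forms of a gene apart.

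The remaining genes of this role group lay close to 0. *mle*, the gene for the RNA helicase of the male dosage compensation complex, had a log2 change of -0.04, and *pUf68*, also called *hfp*, the gene for a poly-U binding splicing factor, 0.13. In the group of *Sxl*, its cofactors and *mle*, 0 of 5 passed and the median log2 change was -0.04, from -0.02 to 0.03 when single arrays were left out.

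Of the SR proteins and SR-like regulators 0 of 5 passed. All 5 lay below 0, and 4 of 5 did so without wild-type array 2 or without mutant array 1, while 50.3% of all probe sets tested lay above 0. Their log2 changes ran from -0.45 (*tra2*) to -0.01 (*SC35*), with a median of -0.30. *tra*, which in females directs the splicing of *dsx*, had signals of 614 and 648 in mutant embryos against 955 and 757 in wild-type embryos. *tra2*, its partner in both sexes, had 641 and 810 in mutant embryos against 1132 and 861 in wild-type embryos. For both genes the mutant arrays lay below the wild-type arrays, with the nearest arrays less than 1.5-fold apart. The log2 changes were -0.43 ± 0.16 and -0.45 ± 0.19 (SE), with limma adjusted p = 0.244 and 0.289. Wild-type array 1 was the higher of its group for both; without it the log2 changes were -0.26 and -0.26, and without mutant array 1 that of *tra2* was -0.29. The median over the 5 genes was -0.20 without wild-type array 1 and -0.54 without wild-type array 2.

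*SF2*, *B52* and *SC35* encode classical SR proteins with an arginine-serine domain. *SF2* had 2928 and 2940 in mutant embryos against 4268 and 3062 in wild-type embryos, and its log2 change of -0.30 was -0.06 without wild-type array 1 and -0.54 without wild-type array 2. *B52* and *SC35* lay close to 0, with log2 changes of -0.05 and -0.01, and that of *SC35* ran from -0.20 to 0.19 when single arrays were left out and was 0.03 with quantile normalisation. A second, much dimmer probe set of *SC35* had signals of 60.8 and 41.8 in mutant embryos against 51.7 and 120 in wild-type embryos, where the groups overlapped. For 4 of the 5 genes, *SC35* being the exception, both mutant arrays lay below both wild-type arrays, an arrangement found for 23% of all probe sets tested. For *B52* this was nearly a tie, with 5541.3 and 5376.6 in mutant embryos against 5562.5 and 5739.1 in wild-type embryos.

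Components of the snRNPs and the spliceosome core showed changes of both signs, and 0 of 8 passed. An unadjusted p under 0.05 in limma was found for 0 of 8, against 16.1% of all probe sets tested. *crn* encodes Crooked neck, a protein built of HAT repeats that is needed for spliceosome assembly and works with HOW in glial cells. Its signal was 541 and 533 in mutant embryos against 496 and 554 in wild-type embryos. The mutant arrays lay between the wild-type arrays, and the log2 change was 0.03 ± 0.15 (SE; limma adjusted p = 0.947), with a 95% interval from -0.31 to 0.38.

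*Prp8*, which encodes the protein at the catalytic centre, had 1850 and 1690 in mutant embryos against 1255 and 1620 in wild-type embryos (log2 change 0.31; limma adjusted p = 0.404), and its log2 change was 0.13 without wild-type array 1 and 0.49 without wild-type array 2. *SmB*, the gene for a protein of the Sm ring, had 3353 and 3729 in mutant embryos against 3986 and 5306 in wild-type embryos (log2 change -0.38; limma adjusted p = 0.349), and its log2 change was -0.17 without wild-type array 2 and -0.59 without wild-type array 1. In both the groups did not overlap but the nearest arrays were close, and *SmB* passed with the replicate number as a block (limma adjusted p = 0.048). *snRNP-U1-70K*, which encodes a U1 particle protein, had a log2 change of 0.26 and both mutant arrays above the wild-type arrays. The other components lay close to 0: *U2af38* and *U2af50*, which encode the subunits of the factor that reads the 3′ splice site, at 0.03 and -0.01, *Prp19* at 0.01 and *SmD3* at -0.01.

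Apart from *Saf-B*, the hnRNP and related genes did not pass. *Rb97D*, which encodes an hnRNP needed in the male germline, had 205 and 262 in mutant embryos against 199 and 180 in wild-type embryos (log2 change 0.29; limma adjusted p = 0.565), and its log2 change was 0.11 with mutant array 2 left out and 0.47 with mutant array 1 left out. *Hrb87F* and *Hrb98DE* encode closely related hnRNPs of the A/B type, and their log2 changes were -0.35 and 0.05. *Hrb87F* had 1321 and 1304 in mutant embryos against 1897 and 1478 in wild-type embryos, whereas the groups overlapped for *Hrb98DE*. The log2 change of *Hrb87F* was -0.17 without wild-type array 1 and -0.53 without wild-type array 2.

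*Hrb27C*, whose product also binds *osk* and *grk* mRNA, differed more between replicate numbers than between genotypes, with 4179 and 2529 in mutant embryos against 3724 and 2257 in wild-type embryos. *glo*, which encodes a repressor of *nos* translation, had a log2 change of 0.06. *rin* encodes the fly G3BP protein, which is largely cytoplasmic and found in stress granules, so that it is no splicing factor by its known role. It had 1598 and 1713 in mutant embryos against 1417 and 1344 in wild-type embryos (log2 change 0.26; limma adjusted p = 0.392).

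STAR and KH proteins share the RNA-binding fold of HOW. Of the 8 such genes listed, 7 were tested and 0 passed in limma at adjusted p under 0.05. At an unadjusted p under 0.05 there were 0 of 7, against 16.1% of all probe sets tested. The median log2 change was -0.11. That median was -0.02 without wild-type array 2 and -0.03 without mutant array 1. *qkr58E-1*, *qkr58E-2* and *qkr58E-3* are quaking-related genes of 1 cluster on arm 2R, and all lay slightly below 0. *qkr58E-1* had 1815 and 1857 in mutant embryos against 2173 and 2260 in wild-type embryos, without overlap (log2 change -0.27; limma adjusted p = 0.366). *qkr58E-2* had 601 and 547 in mutant embryos against 580 and 716 in wild-type embryos, with overlap (log2 change -0.17, from -0.32 to -0.02 when single arrays were left out). *qkr58E-3* had 864 and 825 in mutant embryos against 943 and 906 in wild-type embryos, without overlap (log2 change -0.13).

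A quaking-related gene elsewhere on arm 2R, *qkr54B*, was too dim to be tested, with 23.5 and 26.0 in mutant embryos against 72.9 and 29.1 in wild-type embryos. Its difference came from wild-type array 1, as the other wild-type array lay close to the mutant arrays. *nsr*, a STAR gene with a role in spermatogenesis, had 152 and 169 in mutant embryos against 198 and 151 in wild-type embryos, and the groups overlapped. Its probe set carries the suffix that the array's maker gives to probes shared within a sequence family, so its signal may include related transcripts.

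The listed KH domain genes outside the STAR family were also without a call, unlike *HnRNP-K* of a further list. *Psi*, which encodes the repressor of P element splicing in somatic cells, had 450 and 659 in mutant embryos against 494 and 606 in wild-type embryos, with the same order of the arrays in both groups. *ps*, or *pasilla*, the relative of mammalian Nova genes, had 124 and 190 in mutant embryos against 121 and 154 in wild-type embryos. Its other 3 probe sets were dimmer and none of them was tested. *mub*, which encodes a KH protein related to poly-C binding proteins, had 137 and 117 in mutant embryos against 103 and 82.7 in wild-type embryos. Its groups did not overlap, and the log2 change of 0.46 ± 0.27 (SE; limma adjusted p = 0.463) ran from 0.30 to 0.62 when single arrays were left out.

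ELAV proteins bind AU-rich elements and regulate splicing and 3′ end choice in neurons. Neither measured gene of the family was bright enough to be tested. *Rbp9*, which is known from neurons and the female germline, had signals of 49.9 and 38.1 in mutant embryos against 4.43 and 8.63 in wild-type embryos. Both mutant arrays lay above both wild-type arrays, but 1 mutant array and both wild-type arrays were below a signal of 39.5, the limit for testing, so no fold is given. Without the filter its limma p was 0.0073 unadjusted and 0.211 adjusted, and its second probe set had 13.8 and 5.57 in mutant embryos against 9.53 and 11.8 in wild-type embryos. Of the 12 maternal and pole cell transcripts measured, 3 passed and rose (*dhd*, *pgc* and *aub*), where 1.75% of all probe sets tested were called higher. Both wild-type arrays of *pgc*, at 35.7 and 36.8, lay under 39.5, so it was bright enough to be tested only through the mutant arrays. Its limma adjusted p was 0.0497. Of the 12 transcripts, 5 were tested without a call, with log2 changes from -0.42 (*smg*) to 0.41 (*nos*). The other 4 were too dim to be tested; the mutant arrays lay above the wild-type arrays for *osk* and *vas*, and the groups overlapped for *bcd* and *png*. The part of germline transcripts in the *Rbp9* signal was not tested. *fne*, another neuronal member, had 55.8 and 28.4 in mutant embryos against 48.6 and 31.6 in wild-type embryos, and the groups overlapped.

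**Figure D3:**
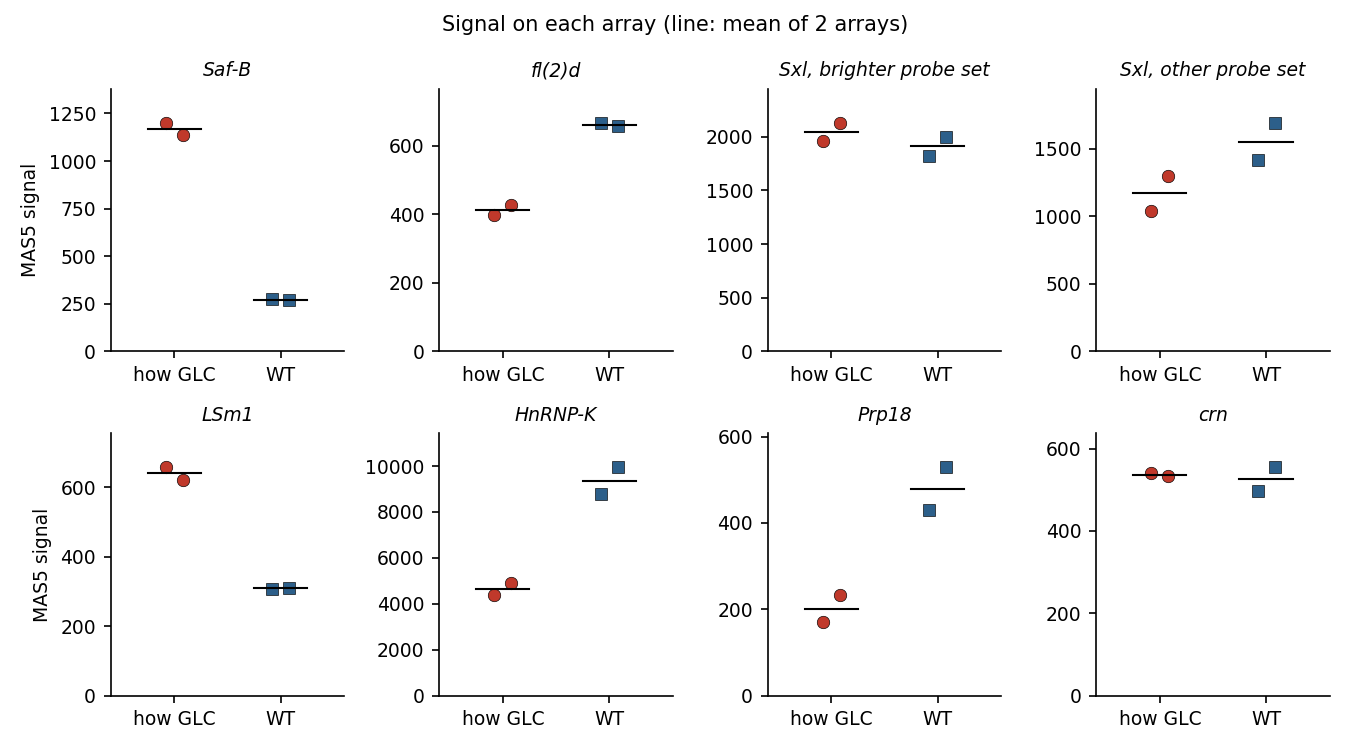
Signal on each array for *Saf-B*, *fl(2)d*, both bright probe sets of *Sxl*, the mRNA-processing genes *LSm1*, *HnRNP-K* and *Prp18*, and *crn*, with the *how* mutant left of wild type, points for arrays and lines for means (n = 2 each, axes from 0). The groups are apart for all but *crn* and the brighter *Sxl* probe set, whose log2 changes are 0.03 and 0.10.

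Counted without the model, both mutant arrays lay above both wild-type arrays for 7 of the 32 tested genes and below them for 9, against 23.9% and 23% of all probe sets tested (46.8% in either direction, and 16 of the 32 genes). With at least 1.5-fold between the nearest arrays, 1 gene was higher (*Saf-B*) and 1 lower (*fl(2)d*), against 3.47% and 2.59% of all probe sets tested (6.06% in either direction). At an unadjusted limma p under 0.05, 4 of the 32 genes were counted (*Saf-B*, *fl(2)d*, *tra* and *tra2*), against 16.1% of all probe sets tested.

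Other genes of mRNA processing were examined from a list of 93, of which 76 had a named probe set and 75 were tested. Of these 1 rose and 2 fell, against 1.75% and 1.29% of all probe sets tested, and 72 did not pass. Their median log2 change was -0.04, with 27 genes above 0 and 48 below, while 50.3% of all probe sets tested lay above 0. Both mutant arrays lay above both wild-type arrays for 11 of the 75 and below them for 25, against 23.9% and 23% of all probe sets tested. Whether the list as a whole is shifted was not tested. *LSm1*, which encodes the defining subunit of the cytoplasmic LSm ring in mRNA decay, had 657 and 622 in mutant embryos against 308 and 309 in wild-type embryos, and rose by 1.05 ± 0.15 on the log2 scale (SE; limma adjusted p = 0.01). *HnRNP-K*, which encodes a KH domain hnRNP, had 4393 and 4920 in mutant embryos against 8771 and 9937 in wild-type embryos, a log2 change of -1.01 ± 0.16 (SE; limma adjusted p = 0.0162). *Prp18*, the gene for a factor of the second catalytic step, had 171 and 233 in mutant embryos against 429 and 528 in wild-type embryos, a log2 change of -1.26 ± 0.21 (SE; limma adjusted p = 0.0215). In all 3 the groups did not overlap. All 3 calls were lost in a limma fit without a mean-variance trend (adjusted p = 0.0786 for *LSm1*, 0.0973 for *HnRNP-K* and 0.106 for *Prp18*) and when dim probe sets were kept. Without mutant array 1 their adjusted p values were 0.0942, 0.269 and 0.119. Without mutant array 2 those of *LSm1* and *HnRNP-K* were 0.0782 and 0.182, and without wild-type array 2 that of *Prp18* was 0.108.

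By role, the call for *LSm1* was 1 of 14 tested genes of the snRNPs, LSm rings and SMN complex, where the median log2 change was -0.12. *Prp18* was 1 of 20 further spliceosome genes (median -0.02), and *HnRNP-K* 1 of 16 further SR, hnRNP and regulatory genes (median -0.04). Among 9 genes of methyladenosine writing and the exon junction complex none passed in limma at adjusted p under 0.05. An unadjusted p under 0.05 was found for 1 of 9, against 16.1% of all probe sets tested. The smallest p values there were those of *btz* and *RnpS1*, whose products belong to that complex or its periphery. *btz* had 416 and 407 in mutant embryos against 297 and 325 in wild-type embryos (log2 change 0.41; limma adjusted p = 0.268). *RnpS1* had 1798 and 1878 in mutant embryos against 1535 and 1509 in wild-type embryos (log2 change 0.27; limma adjusted p = 0.365). For both the mutant arrays lay above the wild-type arrays. Among 16 genes of cap binding, 3′ end processing and export none passed. Of these 16, 3 had an unadjusted p under 0.05 in limma, a share near the 16.1% of all probe sets tested. *CstF50*, which encodes a cleavage factor, had 471 and 467 in mutant embryos against 609 and 684 in wild-type embryos (log2 change -0.46; limma adjusted p = 0.179). *thoc6*, of the THO export complex, had 33.1 and 35.8 in mutant embryos against 97.3 and 57.0 in wild-type embryos (log2 change -1.11; limma adjusted p = 0.268). Both mutant arrays of *thoc6* lay under 39.5, the limit for the mean signal, and its log2 change was -0.57 with 50 added to the signals and ran from -0.73 (wild-type array 1 left out) to -1.50 (wild-type array 2 left out).

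**Figure D4:**
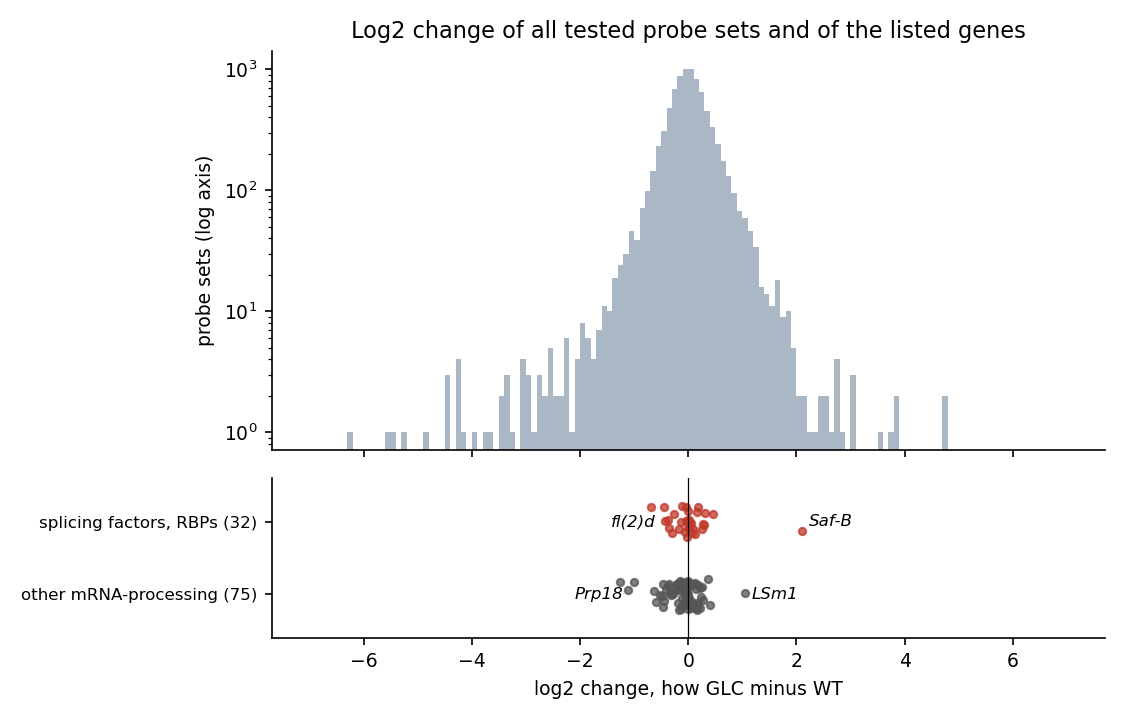
Upper panel, number of the 8380 tested probe sets (log axis) by log2 change, *how* mutant minus wild type; lower panel, the 32 splicing factor and RNA-binding protein genes in red and the 75 other mRNA-processing genes in grey, with vertical scatter for legibility. *Saf-B*, at 2.10, stands apart from the other 31 genes, which lie between -0.68 and 0.46.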

How the data were processed

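The deposited table holds 1 intensity per probe set for each of 4 arrays, which is a MAS5 signal per the submitters' processing notes (settings not given in the sources used here). On each array the 2% trimmed mean was 250.04, so the authors had scaled the values, and they were not normalised further. Probe sets were named through the platform annotation and the RefSeq gene table (Release 6 plus ISO1 MT); of 13966 gene probe sets, 12443 had 1 symbol, 327 several and 1196 none, and 12394 of those with 1 symbol matched the table. Probe sets with several symbols were not used, and no sequence was available for the probes or genes here.

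Signals under the 5th percentile (3.38) were set to it, log2 was taken, and probe sets with a mean under the 40th percentile (39.5) were left out of the test, which kept 8380. The limma package (3.58.1; R 4.3.3) was run with a mean-variance trend in eBayes (residual degrees of freedom 2, prior 5.80) on the whole table, checked on simulated data, with Benjamini-Hochberg adjustment over all of it. Log2 changes are mutant minus wild type. The number of arrays limits the precision: an exact permutation test of 2 against 2 cannot give a two-sided p below 0.333.

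The genes and lists were chosen with earlier results of these data known. Array values are given for genes that passed, *Saf-B*, *crn*, the STAR and KH genes, *tra*, *tra2*, *Sxl* and the 5 largest changes each way without overlap; from each further list, genes that passed or the 2 with the smallest p. Others with array values, such as *SF2*, *Hrb87F*, *rin*, *Mettl14* and the neighbours of *Saf-B*, were added after their values were seen. Alternatives were the replicate block, quantile normalisation, median centring, other filters, 50 added, no trend, a robust fit, an adjusted p under 0.1, the mean of a gene's probe sets, and each array left out.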

Additional observations from a re-analysis of the deposited data

How the results depend on the processing

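With 2 arrays a group, calls rest on spread that limma shares across probe sets. With the replicate number as a replicate block the count of all calls moved from 255 to 825, of the splicing factor genes from 1 to 3 (*Saf-B*, *fl(2)d*, *SmB*) and of the other mRNA-processing genes from 3 to 7. The labels do not say that a number marks a shared batch. Deviations of arrays with the same number correlated with r = 0.183. With 2 arrays a group, the opposite numbering gives the same size with the opposite sign, and pairing was not tested. Without the filter on dim probe sets the counts were 0, 0 and 0 in limma (smallest adjusted p 0.0891), with 1782 probe sets, 6 splicing factor genes and 10 others at an unadjusted p under 0.05. Without the trend the counts over all probe sets and the other mRNA-processing genes were 95 and 0, and *Saf-B* passed. At an adjusted p under 0.1 all calls numbered 401 and the splicing factor genes 2; that count was 2 also with the 60th percentile filter, with 50 added and with the mean of probe sets, *fl(2)d* being the gene added. Leaving out an array gave 87 to 153 calls in all and 0 to 3 of the other mRNA-processing genes, with fewer samples and the lone array assumed to vary like the other group; *Saf-B* passed each time, and groups without overlap numbered 23 to 25 of the splicing factor genes in place of 16, since fewer arrays need to part. The share of all probe sets without overlap was not counted with an array left out. The 23 to 25 genes therefore have no background to be compared with, and nothing is concluded from their number. The median log2 change of the splicing factor genes stayed between -0.03 and 0.02. Of 544 values of 43 genes under alternatives, 21 changed sign, in 14 genes, and none of these was called on either side. Where no cause is named, the cause was not tested.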
